A study of Homo sapiens with 4 samples.

Results

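Chromatin accessibility at the genes of the kynurenine pathway was examined by ATAC-seq, which reads where a transposase can insert into DNA. The cells were HK1, a long-established line from a human nasopharyngeal carcinoma. They were wild type (WT) or carried a knockout of FLI1, an ETS family transcription factor, made with a guide RNA (sgFLI1, FLI1-KO), and each kind was left untreated or exposed to interferon-γ (IFN-γ), a cytokine released by activated T cells. The groups are called WT and WT-IFN-γ, and sgFLI1 and sgFLI1-IFN-γ for the knockout. All 4 hold 1 library each, so differences were not set against a spread between replicates and were not tested. Which of the study's guides was used, and whether the knockout cells are 1 clone or a pool, is not given in the sources used here. Peaks alone cannot show the edit at FLI1, so the knockout itself was not checked here.

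The members are 10 genes: IDO1, IDO2, TDO2, AFMID, KMO, KYNU, KYAT1, KYAT3, AADAT and HAAO, out of 19970 protein-coding genes of the GENCODE annotation of GRCh38. A peak was counted for a gene when it overlapped the gene body or the 10 kb upstream of it. For WT this gave 32 of 59629 peaks, for WT-IFN-γ 38 of 67470, for sgFLI1 26 of 63203 and for sgFLI1-IFN-γ 25 of 59923. Peaks that overlap between lists were merged into 49 regions, out of 93211 in all.

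The kynurenine pathway breaks down tryptophan. IDO1, IDO2 and TDO2 open the indole ring, AFMID turns the product into kynurenine, and from there KMO, KYNU and HAAO lead towards quinolinic acid and NAD, while KYAT1, KYAT3 and AADAT form kynurenic acid. IDO1 is a classical target gene of IFN-γ, and tumour cells that express it deprive T cells of tryptophan and supply them with kynurenine, which restrains them.

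Signal is given as the summit pileup, the number of extended sequence tags over the highest point of a peak, with an exact 95% Poisson interval that covers counting error only. Libraries differed in depth, at 8.04 and 8.84 tags per kb of genome in untreated and treated WT cells and 6.93 and 6.86 in FLI1-KO cells, and the lowest pileup listed was 8, 8, 7 and 7 tags in the same order. Pileups were therefore compared between libraries after division by tags per kb, and a ratio of 2 libraries refers to that scale. Over all shared peaks this ratio had a median on the log2 scale of -0.07 for WT-IFN-γ over WT, -0.14 for sgFLI1-IFN-γ over sgFLI1, 0.05 for sgFLI1 over WT and -0.02 for sgFLI1-IFN-γ over WT-IFN-γ. Of 7 epithelial marker genes, 3, 4, 3 and 3 had a peak over a transcription start site (TSS) in the 4 lists, with KRT8, KRT18 and EPCAM in every list and KRT5, KRT14 and TP63 in none. Of 6 markers of blood, endothelial and stromal cells, 1, 2, 2 and 2 had one. PTPRC, CD3E and COL1A2 had none in any list.

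The question the study put to these libraries was whether the IDO1 promoter opens with IFN-γ and whether FLI1 is needed for it. Here the whole neighbourhood was described as 1 locus, from 10 kb upstream of IDO1 (ENSG00000131203.13, chromosome 8, 39902275 to 39928790) to the end of IDO2 (ENSG00000188676.15, chromosome 8, 39934614 to 40016392), 124 kb in all. Of WT peaks it held 6 without and 11 with IFN-γ, and of FLI1-KO peaks 4 without and 2 with it. The peaks covered 2574, 9145, 1691 and 1194 bp in the same order. The number was thus higher with IFN-γ in WT cells and lower with it in FLI1-KO cells. With peaks of −log10 q of at least 10 alone it was 2 and 6 in WT cells and 1 and 2 in FLI1-KO cells, so the direction in FLI1-KO cells turned. Every one of the 11 merged regions was listed in WT-IFN-γ.

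**Figure D1:**
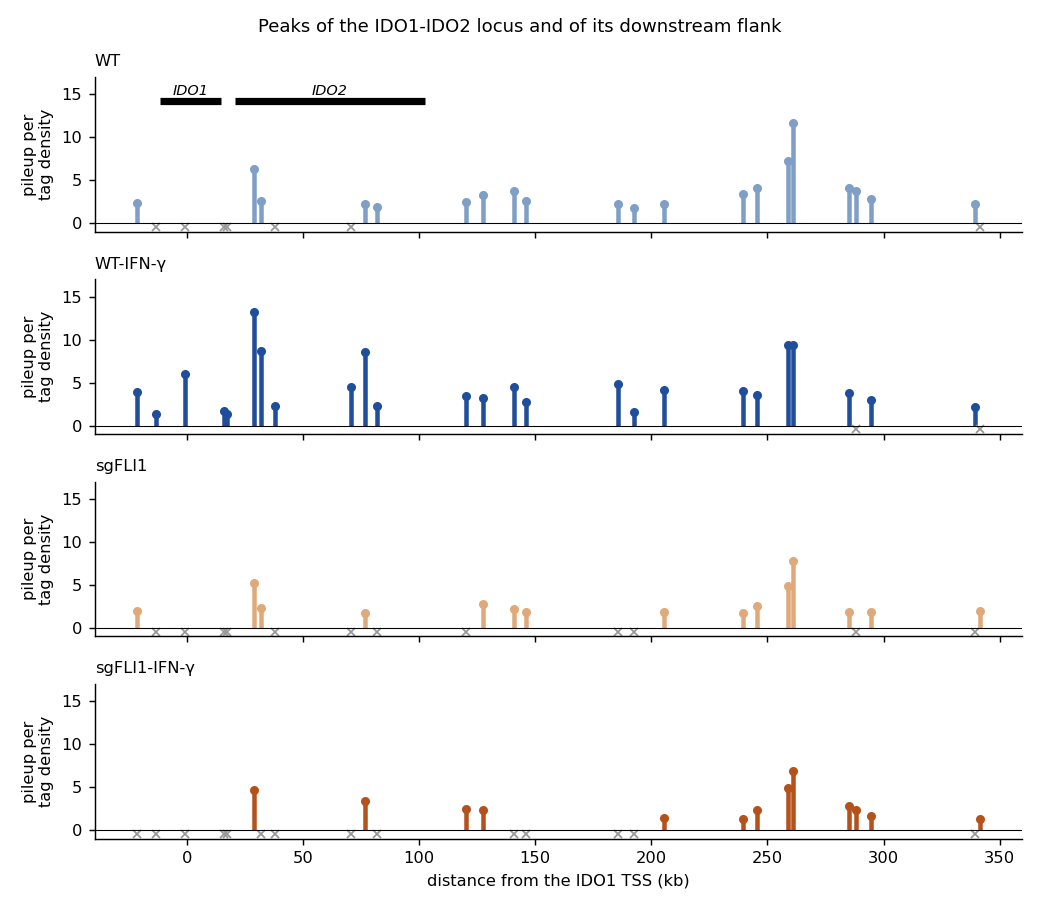
Summit pileup divided by tags per kb (vertical axis) at each region of the IDO1-IDO2 locus and of the 250 kb downstream of it, against the distance of the region from the IDO1 TSS in kb, with 1 panel per library. Crosses mark regions without a peak in that library and black bars the gene bodies. WT-IFN-γ has a peak at all 11 regions of the locus and sgFLI1-IFN-γ at 2 of them.

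IDO1 had 1 peak in WT cells and 3 with IFN-γ, and in FLI1-KO cells 1 and 0. The peak over its TSS was listed in WT-IFN-γ alone, with 53 tags (39.7 to 69.3) and its summit 57 bp upstream of the TSS, over a local background of 10.5 tags. The region spans bases 39912181 to 39914063. A peak 21.7 kb upstream, at the outer edge of the locus, had 19 tags in WT cells (11.4 to 29.7) and 34 with IFN-γ (23.5 to 47.5), against 14 in untreated FLI1-KO cells (7.65 to 23.5) and no listing in treated ones. Its ratio of WT-IFN-γ over WT was 1.63 (0.90 to 3.02), an interval that includes 1. A peak 13.1 kb upstream with 12 tags (6.20 to 20.96) was in WT-IFN-γ alone.

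IDO2, the less active relative of IDO1 that lies next to it, had 5 peaks in WT cells and 8 with IFN-γ, and 3 and 2 in FLI1-KO cells. None of them lay over the IDO2 TSS. The strongest peak of the locus stood 8.23 kb into the gene, in intron 1, with 51 tags in WT cells (38.0 to 67.1) and 117 with IFN-γ (96.8 to 140), against 36 (25.2 to 49.8) in FLI1-KO cells and 32 with IFN-γ (21.9 to 45.2). WT-IFN-γ was the high library and the other 3 intervals overlapped. The ratio of WT-IFN-γ over WT was 2.09 (1.49 to 2.96), that of sgFLI1-IFN-γ over sgFLI1 was 0.90 (0.54 to 1.49), and that of sgFLI1-IFN-γ over WT-IFN-γ was 0.35 (0.23 to 0.52).

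A neighbouring peak in intron 1, at 11.4 kb, had 21 tags in WT cells (13.0 to 32.1) and 77 with IFN-γ (60.8 to 96.2), against 16 in untreated FLI1-KO cells (9.15 to 26.0) and no listing in treated ones. In WT cells it was 3.34 times as high with IFN-γ (2.04 to 5.69). In intron 8, at 56.2 kb, WT cells had 18 tags (10.7 to 28.4) and 76 with IFN-γ (59.9 to 95.1), against 12 in FLI1-KO cells (6.20 to 20.96) and 23 with IFN-γ (14.6 to 34.5). In untreated WT cells this region held a second peak of 12 tags. This shared region stood higher with IFN-γ in both kinds of cells, by 3.84 times in WT (2.28 to 6.83) and by 1.94 times in FLI1-KO cells, where the interval of 0.92 to 4.27 includes 1. Between the treated libraries its ratio of FLI1-KO over WT was 0.39 (0.23 to 0.63).

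The other IDO2 regions were listed in WT-IFN-γ and in no FLI1-KO library. At 49.9 kb, in intron 5, a peak of 40 tags (28.6 to 54.5) was in WT-IFN-γ alone. So were a peak of 20 tags (12.2 to 30.9) at 17.4 kb in intron 2 and peaks of 15 tags (8.40 to 24.7) and 12 tags (6.20 to 20.96) at 4.56 kb and 3.30 kb upstream. At 61.2 kb, in intron 8, WT had 15 tags (8.40 to 24.7) and WT-IFN-γ 20 (12.2 to 30.9).

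A missing peak can reflect depth, so the signal of the strongest library was scaled to the depth of each library that lacked the peak and set against the lowest pileup that would have been listed over the same background. Of the 6 locus regions without a peak in WT, the 7 in sgFLI1 and the 9 in sgFLI1-IFN-γ, all 22 would have been listed at equal signal. For the region at 49.9 kb in IDO2, equal signal came to 31.8 tags in sgFLI1-IFN-γ, where 12 were enough. For the upstream region at 3.30 kb it came to 9.54 tags, where 7 were enough. For the region at 61.2 kb it came to 15.9 tags in sgFLI1-IFN-γ and 16.3 in sgFLI1, where 14 were enough in each. The regions at 3.30 kb and 61.2 kb thus had little margin, and the scaling leaves out counting error.

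Background tags around the peaks moved too. The highest local background at a locus peak was 6.23 tags in WT cells and 21.1 with IFN-γ, and in FLI1-KO cells it was 4.20 and 3.74, or 2.83, 9.59, 2.34 and 2.14 times the background of the library. The highest values in both WT libraries were at the peaks of intron 1. This background is an average that takes in the peaks themselves, so tags outside them were not measured.

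Without IFN-γ, 4 of 4 peaks of the locus shared between the genotypes were lower in sgFLI1 than in WT, with log2 ratios between -0.37 and -0.18, and the interval of each ratio includes no change. The next 250 kb downstream held 15 peaks without and 14 with IFN-γ in WT cells, and 11 in either FLI1-KO library. There 10 of 10 shared peaks were lower in sgFLI1 than in WT and 9 of 9 lower in sgFLI1-IFN-γ than in WT-IFN-γ, with medians of -0.60 and -0.59 on the log2 scale. From there to 1 Mb downstream 5 of 6 were lower in each of these pairs, with medians of -0.13 and -0.39. Over 5 Mb on each side, leaving out only the locus and the nearest 250 kb and so with the last stretch counted in, the medians were 0.12 over 120 shared peaks and -0.01 over 132. The 250 kb upstream of the locus held no peak in any list. The lower values next to the locus were thus present without IFN-γ, and whether the number of DNA copies of this stretch differs between the cells was not tested. Inside the locus the median of the 2 shared peaks between treated libraries was -1.43, below that of the downstream flank. The sizes of the flanks were chosen after the data were seen.

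**Figure D2:**
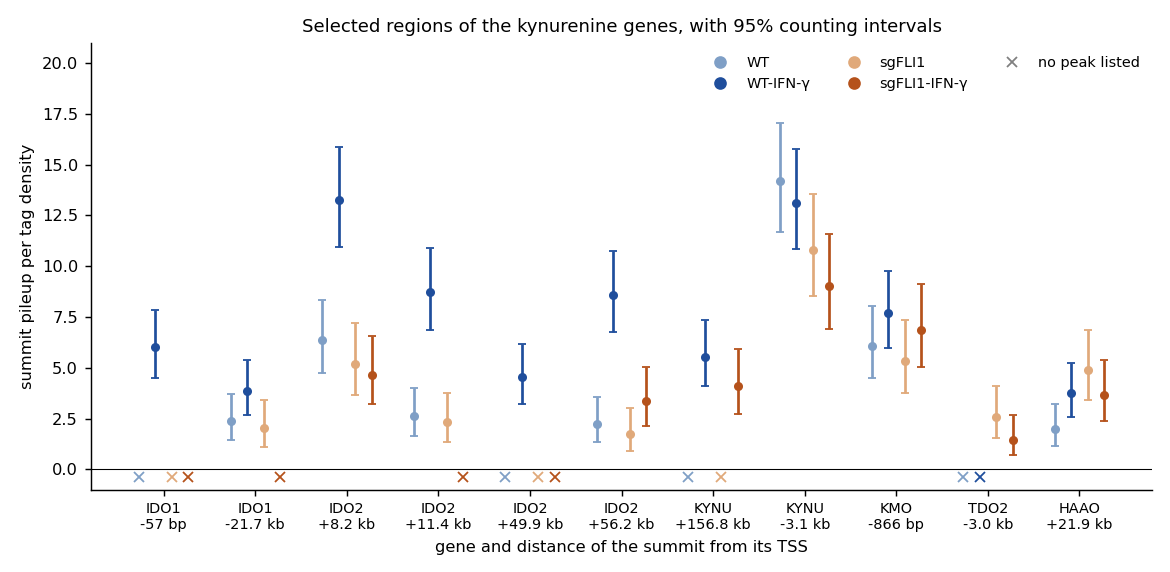
Summit pileup divided by tags per kb (vertical axis) in the 4 libraries for regions named in the text, with the distance of the summit from the TSS of the gene under each. Bars are exact 95% Poisson intervals (counting error only) and crosses mark libraries without a peak. At the IDO2 regions WT-IFN-γ is above the other libraries, while at KYNU +156.8 kb both treated libraries have a peak and neither untreated one has.

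TDO2, the tryptophan dioxygenase best known from liver (ENSG00000151790.9, chromosome 4, 155854738 to 155920406), had 1 peak in each FLI1-KO library and 0 in the WT libraries. Its TSS was in no peak of any list. The peak lay 3.01 kb upstream of the canonical TSS, inside the annotated gene, with 18 tags in FLI1-KO cells (10.7 to 28.4) and 10 with IFN-γ (4.80 to 18.4). The signal of untreated FLI1-KO cells would have come to 22.1 tags in WT and in WT-IFN-γ, where 8 were enough for a listing. The weaker treated peak was not scaled in this way. Its −log10 q was 3.53, so it would not be listed at a limit of 5. The bases within 100 bp of its summit, chr4:155900585-155900785 on the plus strand, are shown because this region was listed in the knockout cells under both conditions and never in WT cells. Capitals mark an AP1 motif (TGACTCA, here read on the other strand) centred 6 bp from the summit:
TDO2 upstream region: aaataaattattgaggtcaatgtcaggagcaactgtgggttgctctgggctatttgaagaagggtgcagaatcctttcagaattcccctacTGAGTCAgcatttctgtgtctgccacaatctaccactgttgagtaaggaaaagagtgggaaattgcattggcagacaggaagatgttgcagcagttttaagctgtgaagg

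AFMID, the formamidase that releases kynurenine (ENSG00000183077.16, chromosome 17, 78187358 to 78207702), had an open promoter in every library. The peak, whose region also covers a TSS of TK1, had 133 tags in WT cells (111 to 158) and 123 with IFN-γ (102 to 147), against 113 (93.1 to 136) in FLI1-KO cells and 101 with IFN-γ (82.3 to 123). Per tag density these were 16.5, 13.9, 16.3 and 14.7, and the ratio of WT-IFN-γ over WT was 0.84 (0.65 to 1.08). A weak peak of 12 tags (6.20 to 20.96) 7.56 kb upstream was in WT-IFN-γ alone.

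KMO, the kynurenine hydroxylase of the outer mitochondrial membrane (ENSG00000117009.12, chromosome 1, 241532134 to 241595642), had 2, 2, 3 and 2 peaks. A peak with its summit 866 bp upstream of the TSS had 49 tags in WT cells (36.3 to 64.8) and 68 with IFN-γ (52.8 to 86.2), against 37 (26.1 to 51.0) in FLI1-KO cells and 47 with IFN-γ (34.5 to 62.5). The treated library was the higher one in both kinds of cells, by 1.26 times in WT (0.86 to 1.86) and 1.28 times in FLI1-KO cells (0.82 to 2.03), and both intervals include 1. The second shared peak, over exon 15, had 59, 63, 67 and 47 tags. In intron 9 a peak of 8 tags (3.45 to 15.8), among the weakest counts of the members, was in sgFLI1 alone. The sequence under the upstream summit, chr1:241531412-241531612 on the plus strand, is given without capitals since none of the 3 motifs searched lies in it, and only 31.3% of its bases are G or C:
KMO upstream region: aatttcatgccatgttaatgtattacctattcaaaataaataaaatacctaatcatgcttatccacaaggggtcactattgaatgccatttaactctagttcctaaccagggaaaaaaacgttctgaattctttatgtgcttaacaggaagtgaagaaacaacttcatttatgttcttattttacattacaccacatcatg

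KYNU, the kynureninase (ENSG00000115919.15, chromosome 2, 142877657 to 143055833), is the longest of the members and had the most peaks, 12 in either WT library, 6 in FLI1-KO cells and 8 there with IFN-γ. No peak lay over its TSS. The strongest one was 3.12 kb upstream, with 114 tags in WT cells (94.0 to 137) and 116 with IFN-γ (95.9 to 139), against 75 (59.0 to 94.0) in FLI1-KO cells and 62 with IFN-γ (47.5 to 79.5). IFN-γ left it at 0.93 times the untreated value in WT cells (0.71 to 1.21). The ratio of FLI1-KO over WT was 0.76 untreated (0.56 to 1.03) and 0.69 with IFN-γ (0.50 to 0.95). A second upstream peak, at 9.25 kb, had 61, 78, 67 and 58 tags in the same order, and the ratio of FLI1-KO over WT was 1.27 untreated (0.89 to 1.83) and 0.96 with IFN-γ (0.67 to 1.36).

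In intron 12 of KYNU, 156.8 kb from the TSS, a region was gained with IFN-γ in both kinds of cells. It had 49 tags in WT-IFN-γ (36.3 to 64.8) and 28 in sgFLI1-IFN-γ (18.6 to 40.5), and no peak in WT or sgFLI1, where equal signal would have come to 49.1 and 40.0 tags against 12 and 11 needed. The ratio of FLI1-KO over WT with IFN-γ was 0.74 (0.45 to 1.19). A weaker region in intron 8 had the same pattern, with 20 tags in WT-IFN-γ (12.2 to 30.9) and 13 in sgFLI1-IFN-γ (6.92 to 22.2). No other member region was listed in both treated libraries and in neither untreated one. The bases around the intron 12 summit, chr2:143034409-143034609 on the plus strand, hold neither the IRF nor the ETS nor the AP1 motif. They hold the letters CACTNGATG 2 times, in capitals, a string picked after this sequence had been read. Its share among other peaks therefore cannot show that this region is unusual. Of the other member regions, those of KYAT3 at 56.5 kb and at 6.22 kb upstream hold the string 1 time each. It occurs at least once in 1.66% of the WT-IFN-γ peaks and 2 or more times in 11 of them:
KYNU intron 12 region: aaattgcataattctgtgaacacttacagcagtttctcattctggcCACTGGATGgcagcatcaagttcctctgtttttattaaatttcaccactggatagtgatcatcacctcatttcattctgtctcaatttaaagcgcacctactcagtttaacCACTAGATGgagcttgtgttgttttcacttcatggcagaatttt

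The remaining 15 KYNU regions were weak, with pileups from 8 to 39 tags, and most were listed for WT cells only. Untreated WT cells alone had peaks at 72.9 kb (12 tags), 96.7 kb (20 tags), 128 kb (11 tags) and 175 kb (11 tags, exon 14). WT-IFN-γ alone had them at 59.1 kb (14 tags), 149 kb (12 tags) and 155 kb (13 tags), and both WT libraries at 112 kb (20 and 16 tags) and 127 kb (10 and 11 tags). At equal signal, those at 72.9, 155 and 175 kb would not have been listed in either FLI1-KO library. In sgFLI1-IFN-γ they would have come to 9.52, 10.3 and 8.73 tags, where 10, 11 and 10 were needed. These 9 regions stand against 2 that were in FLI1-KO cells only, both in sgFLI1-IFN-γ, at 59.3 kb (11 tags) and 118 kb (8 tags). Of all merged regions, 5.93% were listed for untreated WT cells only, 11.6% for treated WT cells only and 4.20% for both of these. The matching shares for FLI1-KO cells were 8.66% untreated, 6.13% treated and 3.56% for both. Regions of a single genotype were thus common on either side, and the split of 9 and 2 was not tested. At 65.3 kb the untreated libraries of both genotypes had 22 and 15 tags, and at 135 kb a peak of 10 tags in WT cells, 13 with IFN-γ and 9 in untreated FLI1-KO cells was listed. The 2 regions in every list were also lower in FLI1-KO cells per tag density, with ratios over WT of 0.57 (0.31 to 1.00) untreated and 0.86 (0.45 to 1.62) with IFN-γ at 66.8 kb, and 0.64 (0.28 to 1.40) and 0.56 (0.24 to 1.22) at 103 kb, and all of these intervals include 1.

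HAAO, which forms the precursor of quinolinic acid (ENSG00000162882.15, chromosome 2, 42767089 to 42792593), had 1 peak in each list, in intron 4 and 21.9 kb from the TSS. It had 16 tags in WT cells (9.15 to 26.0) and 33 with IFN-γ (22.7 to 46.3), against 34 (23.5 to 47.5) in FLI1-KO cells and 25 with IFN-γ (16.2 to 36.9), so that WT was the low library. The ratio of sgFLI1 over WT was 2.47 (1.32 to 4.78).

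KYAT1 and KYAT3, aminotransferases that make kynurenic acid, both had strong promoter peaks that differed little between libraries. At KYAT1 (ENSG00000171097.14, chromosome 9, 128832942 to 128882494) the peak, shared with the TSS of LRRC8A, had 161 tags in WT cells (137 to 188) and 155 with IFN-γ (132 to 181), against 128 (107 to 152) in FLI1-KO cells and 121 with IFN-γ (100.4 to 144.6). Per tag density these were 20.0, 17.5, 18.5 and 17.6. At KYAT3 (ENSG00000137944.18, chromosome 1, 88935773 to 88992953) the peak, shared with RBMXL1, had 132 and 146 tags in WT cells and 137 and 110 in FLI1-KO cells, or 16.4, 16.5, 19.8 and 16.0 per tag density. All ratios between libraries at both promoters lay between 0.81 and 1.20, with intervals that include 1.

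Distal peaks of these genes varied more. A peak 10.7 kb upstream of KYAT1 had 33 tags in WT cells (22.7 to 46.3) and 62 with IFN-γ (47.5 to 79.5), against 54 (40.6 to 70.5) in FLI1-KO cells and 33 with IFN-γ (22.7 to 46.3). With IFN-γ it was 1.71 times as high in WT cells (1.10 to 2.69) and 0.62 times as high in FLI1-KO cells (0.39 to 0.97). A KYAT1 peak at 29.7 kb, of 28 tags in WT cells (18.6 to 40.5) and 21 with IFN-γ (13.0 to 32.1), was in neither FLI1-KO list. In intron 1 at 5.86 kb a KYAT1 peak of 22 tags (13.8 to 33.3) was in sgFLI1 alone, and over exon 5 one of 11 tags (5.49 to 19.7) was in WT-IFN-γ alone. In intron 2 of KYAT3, at 7.34 kb, the pileups were 37 and 69 in WT cells and 48 and 32 in FLI1-KO cells, with a ratio of 1.70 in WT cells (1.12 to 2.60) and 0.67 in FLI1-KO cells (0.42 to 1.08). A peak 6.22 kb upstream of KYAT3 had 22 tags in WT (13.8 to 33.3), and in FLI1-KO cells 11 (5.49 to 19.7) and 27 with IFN-γ (17.8 to 39.3), and was missing from WT-IFN-γ alone.

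The KYAT1 promoter was the only member region with the ETS motif CCGGAAGT, the kind of site FLI1 binds, within 100 bp of the summit. The motif was in between 1.28% and 1.42% of all peaks of a list. The stretch from 182 to 87 bp before the TSS, chr9:128882037-128882132 on the minus strand, is shown with the motif in capitals, and the ratio of sgFLI1 over WT at this peak was 0.92 (0.73 to 1.17):
KYAT1 promoter: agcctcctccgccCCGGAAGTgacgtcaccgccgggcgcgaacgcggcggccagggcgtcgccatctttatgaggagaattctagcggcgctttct

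AADAT, a mitochondrial aminotransferase (ENSG00000109576.14, chromosome 4, 170060222 to 170091699), had no peak in any list. Its promoter was richer in G and C than those of the open members. In the 300 bp around the TSS, as RefSeq gives them for GRCh38.p14, AADAT had 77.7% G or C and 44 CpG pairs, and HAAO, also without a peak there, had 74.7% and 37. AFMID, KYAT1 and KYAT3, open in all 4 libraries, had 67.7%, 68.7% and 67.3%. Of the 3613 RefSeq windows at least as rich in G and C as that of HAAO, 71.6% to 73.4% met a peak in a list. The TDO2 and KYNU windows had 41.3% and 42.3%, with 1 CpG each and no peak. The KMO window had 36.7% and 1 CpG, and the edge of the upstream peak reached into it in 3 lists. Of the 2291 windows with no more G and C than that, 2.53% to 3.67% met a peak in a list. The exon-free stretch before the TSS is shown for a closed and an open member, with CpG pairs in capitals (chr4:170089957-170090143 on the minus strand and chr17:78187234-78187357 on the plus strand):
AADAT promoter, no peak: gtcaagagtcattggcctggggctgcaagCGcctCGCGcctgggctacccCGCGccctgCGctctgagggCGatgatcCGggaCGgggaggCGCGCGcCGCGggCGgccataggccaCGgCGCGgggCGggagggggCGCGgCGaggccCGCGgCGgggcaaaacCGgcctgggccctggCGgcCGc
AFMID promoter, peak in 4 lists: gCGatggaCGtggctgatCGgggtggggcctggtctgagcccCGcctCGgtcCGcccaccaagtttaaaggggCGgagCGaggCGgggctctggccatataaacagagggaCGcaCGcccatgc

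**Figure D3:**
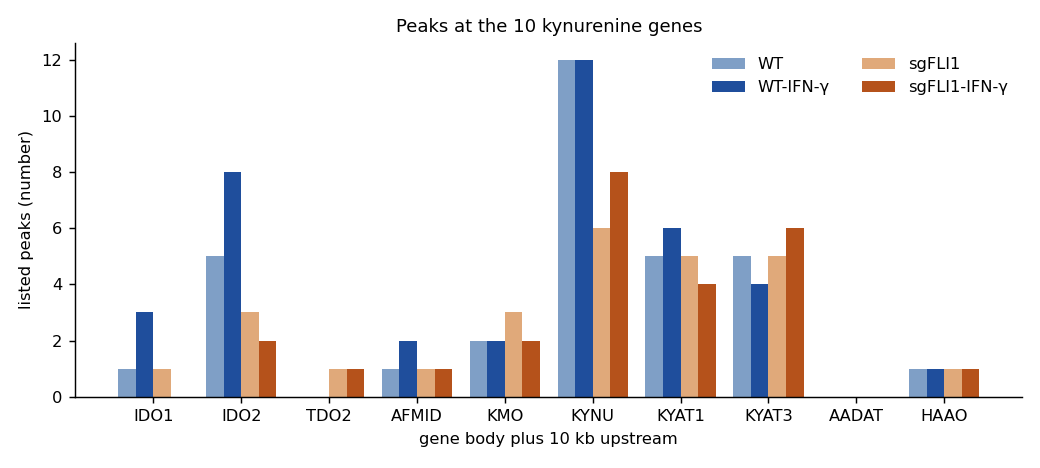
Number of listed peaks in the gene body and the 10 kb upstream (vertical axis) for each of the 10 genes, with 1 bar per library. IDO1 and IDO2 are highest in WT-IFN-γ, KYNU is higher in both WT libraries than in both FLI1-KO libraries, and AADAT has no peak.

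Over the 10 genes, a TSS lay in a peak for 3 in WT cells and 5 with IFN-γ, and for 4 in either FLI1-KO library. Among all protein-coding genes 62.5%, 63.1%, 62.0% and 61.5% had one in the same order. AFMID, KYAT1 and KYAT3 were the constant members. IDO1 was added in WT-IFN-γ, and KMO counted in the 3 lists where the peak edge reached an annotated TSS.

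With IFN-γ, 13 of 38 member peaks (34.2%, Wilson's 95% interval 21.2 to 50.1%) were gained in WT cells, meaning that they shared no base with an untreated peak, beside 25.2% of all peaks. The IDO1-IDO2 locus gave 6 of 11 (54.5%, 28.0 to 78.7%) and the other 8 genes 7 of 27 (25.9%, 13.2 to 44.7%). In FLI1-KO cells 5 of 25 were gained (20.0%, 8.86 to 39.1%), beside 18.0% of all peaks, and none of them in the locus. Lost with IFN-γ were 6 of 32 in WT (18.8%, 8.89 to 35.3%, beside 15.9%) and 6 of 26 in FLI1-KO cells (23.1%, 11.0 to 42.1%, beside 22.2%). The shares of the other 8 genes were thus near those of all peaks, and the locus carried the higher share in WT.

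Between the genotypes, 18 of 38 WT-IFN-γ member peaks had no counterpart in sgFLI1-IFN-γ (47.4%, 32.5 to 62.7%), beside 29.0% of all peaks. In the locus it was 9 of 11 (81.8%, 52.3 to 94.9%) and in the other 8 genes 9 of 27 (33.3%, 18.6 to 52.2%). Of the sgFLI1-IFN-γ member peaks, 4 of 25 had none in WT-IFN-γ (16.0%, beside 19.8% of all peaks). Untreated, 9 of 32 WT member peaks were missing from sgFLI1 (28.1%, 15.6 to 45.4%, beside 21.4%) and 3 of 26 sgFLI1 member peaks were missing from WT (11.5%, 4.00 to 29.0%, beside 25.3%). Neighbouring peaks share a locus and are not independent.

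**Figure D4:**
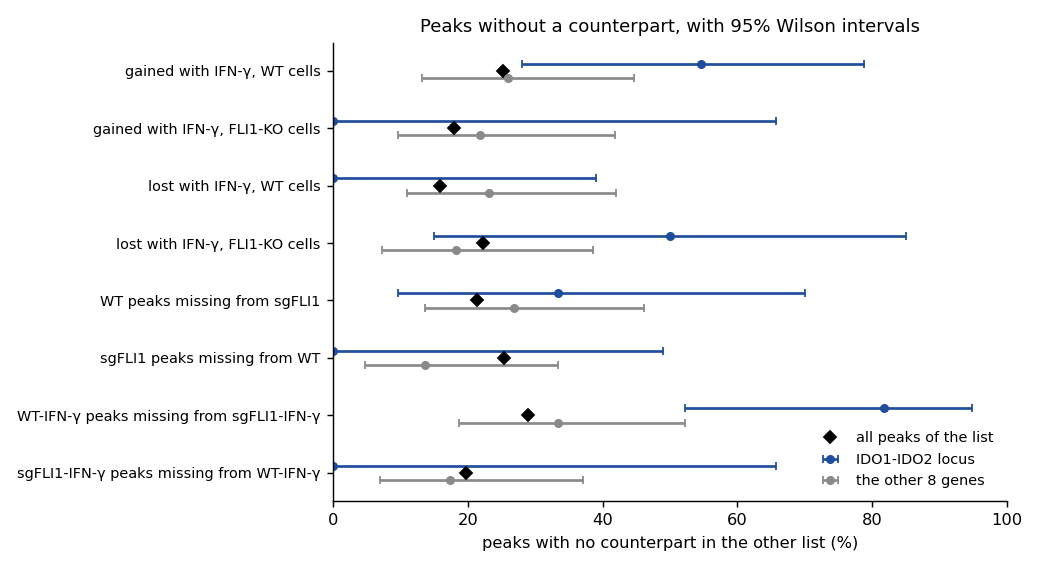
Share of peaks without a counterpart in the other list (horizontal axis, %) for the IDO1-IDO2 locus, the other 8 genes and all peaks of the list, in the 8 comparisons named on the vertical axis. Bars are 95% Wilson intervals, which cover counting error only and treat neighbouring peaks as independent, which they are not. Of the 8 comparisons, the interval of the locus lies above the share of all peaks for those gained with IFN-γ in WT cells and those of WT-IFN-γ missing from sgFLI1-IFN-γ.

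Of the 49 member regions, 18 were in every list (36.7%, beside 43.9% of all regions) and 11 in WT-IFN-γ alone (22.4%, beside 11.6%), 6 of those in the locus. Among member peaks that matched one to one, 6 of 24 were at least 1.5 times as high in WT-IFN-γ as in WT, beside 6.12% of all shared peaks, and 3 of these 6 lay in the locus. In FLI1-KO cells it was 2 of 20, beside 2.43%. At least 1.5 times lower in FLI1-KO cells were 3 of 23 untreated, beside 8.39%, and 4 of 19 with IFN-γ, beside 10.7%. These counts cover a single direction each, and the reverse was not counted over all peaks. Untreated, sgFLI1 stood above WT at the HAAO peak (2.47 times), upstream of KYAT1 (1.90) and in intron 2 of KYAT3 (1.51). Between the treated libraries the highest ratio of FLI1-KO over WT was 1.46. With IFN-γ, ratios over untreated cells were 0.55 over exon 14 of KYAT3 and 0.63 in intron 4 of KYNU in WT. In FLI1-KO cells they were 0.56 at TDO2 and 0.62 upstream of KYAT1. The limit of 1.5 was chosen after the data were seen.

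The IRF motif GAAANNGAA, bound by interferon regulatory factors, lay within 100 bp of the summit in 3 of the 11 locus regions and in 0 of the other 38 member regions, with both strands searched. Among all peaks it was in 5.77% of those in WT cells and 9.09% with IFN-γ, and of those in FLI1-KO cells it was in 5.47% and 5.94%. The 3 regions were the IDO1 promoter, where it stood 50 bp from the summit, and the IDO2 regions at 17.4 kb and 56.2 kb. The first 2 were in WT-IFN-γ alone and the last was the one with a higher pileup under IFN-γ in both kinds of cells. The AP1 motif was in 8 of 49 member regions (16.3%, 8.51 to 29.0%), 1 of them in the locus, against 17.8% to 20.2% of all peaks of a list.

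Tryptophan is also carried into cells, charged to tRNA and used for serotonin and NAD by other genes. Of 16 genes listed for tryptophan uptake and use, which also take in GPR35, IL4I1, INMT and GOT2, a TSS was in a peak for 9 in WT cells. It was 8 in WT cells with IFN-γ and 10 in either FLI1-KO library. Among all protein-coding genes 62.5% and 63.1% had one in WT cells without and with IFN-γ, and 62.0% and 61.5% in FLI1-KO cells. Differences between lists came from 2 amino acid transporters. SLC7A5, the large neutral amino acid transporter that imports tryptophan, had 65 tags over a TSS in untreated WT cells and 55 and 58 in FLI1-KO cells without and with IFN-γ, and no such peak in treated WT cells. SLC7A8, a related transporter, had 29 tags in each FLI1-KO library and no such peak in either WT library. The other 14 had a TSS peak in all 4 lists or in none. Lists without a TSS peak still held other peaks counted for these transporters. SLC7A5 had 5 in WT cells and 3 with IFN-γ, and 5 in either FLI1-KO library. SLC7A8 had 2 and 5 in WT cells and 4 and 3 in FLI1-KO cells. Whether depth or the place of a peak edge left a TSS out was not examined.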

How the data were processed

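Per the study's methods and the submitters' processing notes, the authors trimmed the reads, aligned them to GRCh38 with Bowtie2 (2.3.4.1), removed alignments of low quality and duplicates, and called peaks with MACS2 (2.1.2). Whether a list comes from 1 replicate or several, and from before or after the reproducibility filter the methods name, is not given in the sources used here, nor is a shift of tag ends for the transposase, on which summit positions depend. In the deposited lists each peak has a score, a fold enrichment (a ratio) and −log10 p and −log10 q values, as the authors' caller wrote them. Scores were not compared between libraries.

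From each fold and −log10 p the whole summit pileup and local background were recovered (100% of peaks, tolerance 0.001). Tags per kb are the library background over the extension length. An overlap of 1 bp made a peak shared. Genes and TSSs came from GENCODE 44. Intervals are exact Poisson for pileups, exact conditional binomial for ratios and Wilson's for shares. Motifs were looked for on either strand, up to 100 bp from a summit, and sequences were read from GRCh38 and from RefSeq windows, which held 8 of the 10 members.

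The members and lists were chosen with earlier results of these data known. Named are all members, every IDO1 and IDO2 peak, other promoter peaks, and regions listed in some libraries only, with the other named regions chosen after their values were seen. Steps were tested on simulated data. No test between groups was run. Alternatives were stricter q limits, 3 kb upstream, an overlap of 50% of the shorter peak, pileups scaled to the shallowest library, and other scalings of promoter pileups. Python 3.11.15, numpy 2.4.6, pandas 2.3.3, scipy 1.17.1 and samtools 1.23.1 were used.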

Additional observations from a re-analysis of the deposited data

Results flagged for a closer look

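The results below moved in opposite directions with IFN-γ in WT and in FLI1-KO cells. With 1 library a group, these differences were not tested. The number of member peaks changed by 6 in WT cells and by -1 in FLI1-KO cells, that of the IDO1-IDO2 locus by 5 and -2, that of IDO1 by 2 and -1, that of IDO2 by 3 and -1, that of KYAT1 by 1 and -1 and that of KYAT3 by -1 and 1. In FLI1-KO cells the first 2 depend on the limit for listing a peak. At −log10 q of at least 5 member peaks there numbered 19 without and 19 with IFN-γ, and at 10 or more 15 and 16. For member peaks the direction was thus lost and then turned. Locus peaks numbered 3 and 2 at 5 or more, where the direction was kept, and 1 and 2 at 10 or more, where it turned.

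Among regions in every list, those with a ratio interval that excludes 1 in at least 1 kind of cells were also looked at. Pileup per tag density changed by 6.90 in WT cells and by -0.53 in FLI1-KO cells at the IDO2 peak of intron 1. The FLI1-KO ratio of this peak, -0.15 on the log2 scale, was close to the median of all shared peaks of -0.14. The changes were 2.91 and -2.98 at the peak upstream of KYAT1, 3.21 and -2.26 at the peak in intron 2 of KYAT3, and 1.74 and -1.26 at the HAAO peak.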

How the results depend on the processing

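Of 106 recomputed values of 33 results, 85 stayed within 1.5 times the count or within the counting interval, and 21 did not, all of them under the stricter limits on −log10 q. At 5 or more, member peaks gained with IFN-γ numbered 7 of 28 in WT and 2 of 19 in FLI1-KO cells. Those lost were 3 of 24 and 2 of 19. WT-IFN-γ member peaks missing from sgFLI1-IFN-γ numbered 10 of 28, the reverse 1 of 19, and sgFLI1 member peaks missing from WT 1 of 19. At 10 or more, WT cells had 18 member peaks and 21 with IFN-γ, FLI1-KO cells 15 and 16, and locus peaks numbered 2 and 6 in WT cells and 1 in sgFLI1. Gained were then 6 of 21 and 3 of 16, and lost 3 of 18 and 2 of 15. Missing from sgFLI1 were 5 of 18, from sgFLI1-IFN-γ 6 of 21 and from WT-IFN-γ 1 of 16. Shares of all peaks are not given at these limits, so whether member shares still exceeded them was not examined. A higher limit lists fewer peaks by construction. At 10 or more, sgFLI1-IFN-γ had 2 locus peaks against 1 in sgFLI1, so the lower number with IFN-γ in FLI1-KO cells turned, as it did for member peaks, while WT-IFN-γ kept the highest number. With 3 kb upstream, an overlap of 50% of the shorter peak, or pileups scaled to the shallowest library, these counts stayed within 1.5 times.

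No replicate was left out, since each group has 1 library. No paired analysis was possible because each group has 1 library. Differences in preparation and differences between the groups cannot be told apart. Of the member regions without a peak, 1 of 11 in WT-IFN-γ, 4 of 23 in sgFLI1 and 3 of 25 in sgFLI1-IFN-γ would not have been listed at equal signal, and none of these lies in the IDO1-IDO2 locus. The 3 in sgFLI1-IFN-γ were the KYNU regions at 72.9, 155 and 175 kb.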
